A study of Mus musculus with 189 samples.

Results

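Carm1 (gene ID 59035, also named Prmt4) was followed from the MII oocyte to the 32-cell blastocyst. It is 1 gene of a quantitative PCR panel of 192 assays for mouse embryos, 36 of which failed quality control and were left out, and it was taken by its row in the deposited Ct table and not by its behaviour. The gene lies on chromosome 9 of the mouse assembly GRCm38.p6, at chr9:21546894-21589467. The Ct (cycle threshold) is the PCR cycle at which the product becomes visible, so that a lower Ct means more transcript and a Ct of 30 marks a gene that was not detected. Carm1 was detected in all 189 deposited samples.

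Carm1 encodes an arginine methyltransferase of the PRMT family, which places asymmetric dimethyl marks on arginines of the histone H3 tail and on many other proteins, and which was first described as a coactivator of nuclear receptors. In the mouse embryo it is known for experiments in which a blastomere given extra CARM1 contributed preferentially to the inner cell mass (ICM), the pluripotent part of the blastocyst, with the trophectoderm (TE) as the outer layer. Sox2 and Nanog encode transcription factors of pluripotent cells, and Cdx2 encodes a transcription factor of the TE. All values below are transcript levels, and neither the CARM1 protein nor its histone marks were measured.

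Oocytes and embryos came from superovulated F1 (C57BL/6 x DBA/2) females, mated with C57BL6 males where embryos were needed, and embryos were grown in KSOMaa medium at low oxygen with no further treatment. The samples used for the stages were 11 MII oocytes (mature oocytes arrested in meiosis), 14 zygotes, 21 samples of the 2-cell, 7 of the 3-cell, 12 of the 4-cell, 27 of the 8-cell, 26 of the 16-cell and 50 of the 32-cell stage. Samples of 1 embryo share their source, so they were averaged first, which left 58 units: 11 oocytes, 14 zygotes, 8 embryos of the 2-cell, 3 of the 3-cell, 6 of the 4-cell, 7 of the 8-cell, 2 of the 16-cell and 7 of the 32-cell stage. The labels name no embryo for 11 of the 2-cell blastomeres, which were treated as 1 unit, and they number the blastomeres of the 16-cell embryos 4 and 5 up to 20 and 19. Whole embryos of the 16-cell (3) and 32-cell (3) stages, an isolated ICM, an isolated TE and 10 samples of embryonic stem cell (ESC) RNA served as references. The units with 2, 4 and 8 cells include 3 whole embryos each, and the units of the 16- and 32-cell stages include none. Late units mix single cells with samples of several cells. The latter were 6 of 26 samples at the 16-cell and 18 of 50 at the 32-cell stage, and each counted as 1 sample. For the 2-cell samples labelled A.e1, A.e2 and A.e3, and for some samples of the 3-cell embryo e2, the labels leave the kind unclear.

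The study normalized to 3 control genes, Hnrnpr, Ssu72 and Ube2e1. Expression is therefore given as normalized log2 expression, which is 30 minus the Ct, less the mean of the same quantity over these 3 genes in the same sample. A value of 0 means a Ct equal to the mean Ct of the control genes. A difference of 1 was read as a doubling relative to them, and the folds below assume this. In dilutions of ESC RNA the Ct changed by −1.10 per doubling of RNA for Carm1 and by −1.13 and −1.12 for the controls. Levels of different genes were not compared, because each assay has its own efficiency. The oocyte marker Dazl had values from 3.16 to 4.02 in MII oocytes and a median of −11.89 at the 32-cell stage, where it was not detected in 42 of 50 samples. Averaged over the 3 controls, the Ct lay between 12.3 and 13.5 in MII oocytes and between 13.8 and 20.2 in 32-cell samples, so the late samples held less template. The labels name no culture or collection day, and p-values measure the spread between these oocytes and embryos.

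Relative to these controls, and with the 16- and 32-cell stages sampled as blastomeres, the mean of Carm1 was lowest in oocytes and highest at the 32-cell stage, whereas whole 32-cell embryos had a mean of −0.46, and in the deposited normalized table and without normalization it was lowest at the 32-cell stage. In the 11 MII oocytes it lay between −1.09 and −0.41, with a median of −0.71, and in the 14 zygotes between −1.06 and −0.21, with a median of −0.56. The embryo means at the 2-cell stage ran from −0.55 to 0.97 with a median of 0.02. The 3 embryos of the 3-cell stage had 0.07, 0.19 and 0.74. The 4-cell embryos spanned −0.56 to 0.27 with a median of −0.20, and the 8-cell embryos −0.58 to 0.40 with a median of 0.02. The 2 embryos of the 16-cell stage had 0.59 and 1.02, and the 7 of the 32-cell stage ran from 0.53 to 1.40 with a median of 1.02. None of the 9 late embryo means from blastomeres overlapped with a single oocyte or zygote. Single late samples did overlap: the lowest of embryo 8 (32-cell, −0.80) and of embryo 5 (16-cell, −0.27) lay within the range of the zygotes. How many other genes separate in this way was not counted. The 3 whole 32-cell embryos (−0.57 to −0.29) lay within the range of the zygotes, and the stages from 2 to 8 cells overlapped with each other.

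**Figure D1:**
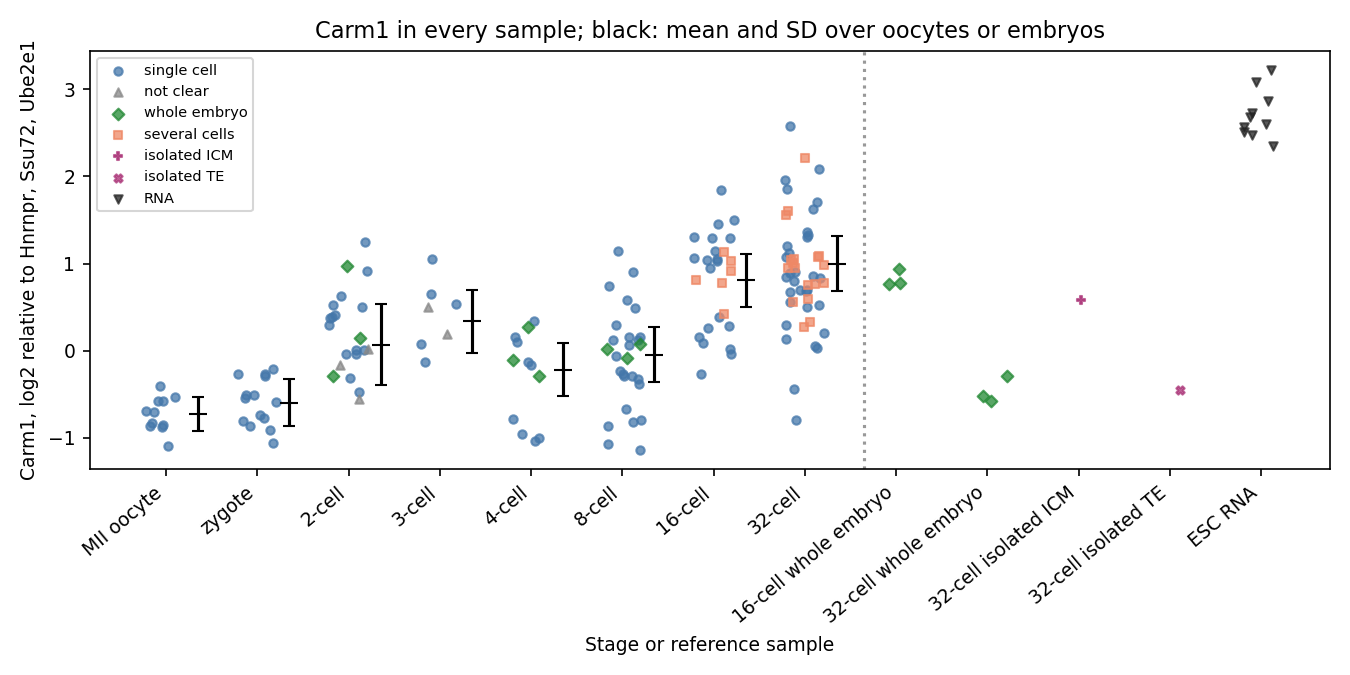
Normalized log2 expression of Carm1 (y axis) in every sample of each stage (x axis), with the kind of sample as colour and symbol, and the mean and SD over oocytes or embryos in black. The oocytes lie at −0.41 or lower, the 32-cell blastomere samples reach 2.58, the 3 whole 32-cell embryos lie between −0.57 and −0.29, and the lowest ESC RNA sample (2.35) lies above all other samples but the one at 2.58.

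Between stages the transcript rose at 2 of the 6 consecutive steps on this scale. The mean over embryos rose from −0.60 ± 0.27 (SD, n = 14) in zygotes to 0.07 ± 0.47 (SD, n = 8) at the 2-cell stage, a difference of 0.67 (SE 0.15, adjusted p = 6.09e-05, limma with Benjamini-Hochberg adjustment over all retained genes), which is 1.59-fold with a 95% interval of 1.30 to 1.94. Of all genes, 68.6% passed the same test at this step. The call was lost without Ube2e1 as control (0.16, adjusted p = 0.346). The mean of Carm1 rose again from −0.05 ± 0.32 (SD, n = 7) at the 8-cell to 0.81 ± 0.30 (SD, n = 2) at the 16-cell stage, by 0.85 (SE 0.26, adjusted p = 0.0140), or 1.81-fold with an interval of 1.25 to 2.60, at a step where 28.2% of genes passed. This step rests on 2 embryos: with the 16-cell embryo 5 alone the difference was 0.64 and did not pass (adjusted p = 0.256).

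The other 4 steps did not pass on this scale, and each passed on another one. Sample medians gave 0.35 from oocyte to zygote (adjusted p = 0.0410) and 0.64 between 4 and 8 cells (adjusted p = 1.61e-04), and the deposited table gave −0.59 between 2 and 4 cells (adjusted p = 0.00783) and −0.96 between 16 and 32 cells (adjusted p = 0.00388). From MII oocytes to zygotes the difference was 0.13 (SE 0.13, adjusted p = 0.737), where 1.92% of genes passed, and its interval of −0.13 to 0.40 leaves room for a fold of 0.913 to 1.32. Between 2 and 4 cells it was −0.29 (SE 0.18, adjusted p = 0.197, 32.7% of genes passing), and between 4 and 8 cells 0.17 (SE 0.18, adjusted p = 0.470, 49.4% passing). Between the 16- and 32-cell blastomere samples it was 0.19 (SE 0.26, adjusted p = 0.680, 10.9% passing), with an interval from −0.34 to 0.72.

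From end to end, the 16- and 32-cell embryos sampled as blastomeres together lay 1.68 above MII oocytes (SE 0.15, adjusted p = 4.20e-15). This is 3.21-fold with an interval of 2.62 to 3.95. At this distance 84.6% of the genes passed, 59 of them higher and 73 lower, so passing is no mark of Carm1. By the difference it ranked 50 from the highest of all retained genes.

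In the order of their means the stages ran MII oocyte, zygote, 4-cell, 8-cell, 2-cell, 3-cell, 16-cell and 32-cell. Of the neighbours in this order, zygote and 4-cell stage differed by 0.38 (SE 0.16, adjusted p = 0.0286, 78.8% of genes passing), a call that was lost without the 4-cell embryo e2 (0.28, adjusted p = 0.123), e3 (0.36, adjusted p = 0.0575) or e5 (0.36, adjusted p = 0.0562) and without Ube2e1 as control (0.07, adjusted p = 0.742). The 2-cell stage lay 0.12 above the 8-cell stage (SE 0.17, adjusted p = 0.555, 63.5% passing), the 3-cell stage 0.27 above the 2-cell stage (SE 0.22, adjusted p = 0.655, 8.97% passing) and the 16-cell stage 0.47 above the 3-cell stage (SE 0.30, adjusted p = 0.198, 43.6% passing). Oocyte and zygote, 4- and 8-cell stage, 8- and 2-cell stage, 2- and 3-cell stage, 3- and 16-cell stage, and 16- and 32-cell stage were therefore not told apart on this scale. Other scalings passed for 3 against 16 cells (1.11 without Ssu72, adjusted p = 0.00202, and 0.70 with sample medians, adjusted p = 0.0110), for 2 against 3 cells (0.77 without Ube2e1, adjusted p = 0.0405) and for 8 against 2 cells, in both directions (−0.52 with sample medians, adjusted p = 6.13e-04, and 0.61 in the deposited table, adjusted p = 0.00157).

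The direction of the change depended on the genes to which Carm1 was compared. From MII oocytes to the 16- and 32-cell embryos it rose with any 1 of the 3 controls left out (by 1.38 without Ube2e1, 1.51 without Hnrnpr and 2.17 without Ssu72) and by 2.01 when each sample was set to the median of the 63 genes detected in every sample. It fell by 1.87 in the deposited normalized table (SE 0.15, adjusted p = 3.01e-17), whose values are relative to Gapdh, Hspa8 and Lmnb1, and by 2.61 without normalization. The median of all retained genes shifted with it, from −0.35 on the scale of the 3 controls to −3.91 in the deposited table, −4.65 without normalization and −0.02 with sample medians. Relative to that median Carm1 lay 2.03 higher in the late embryos and ranked 50 under each of these scalings, which is so by construction, since a scaling moves all genes of a sample by the same amount. Gapdh, Hspa8 and Lmnb1, which are among the 36 assays that did not pass the quality control, rose against Hnrnpr, Ssu72 and Ube2e1 by 3.56 on average over the same interval. Hnrnpr, Ssu72 and Ube2e1 also moved against their own mean over this interval, and all 3 passed, 1 higher and 2 lower. Against Hnrnpr alone the sample mean of Carm1 was 0.13 in MII oocytes and 2.21 at the 32-cell stage. Against Ssu72 alone these means were −0.07 and 0.45, and against Ube2e1 alone −2.25 and 0.08.

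The single steps moved as well. After the zygote, the rise became 0.16 without Ube2e1 (adjusted p = 0.346) and 0.22 in the deposited table (adjusted p = 0.174), and without normalization Carm1 fell by 2.34, where the median of all genes moved by −3.33. Between 8 and 16 cells it fell by 1.02 in the deposited table (adjusted p = 9.81e-04) and rose by 0.45 with sample medians (adjusted p = 0.103). Relative to the median of all genes the 2 steps were 1.00 and 0.53. Ube2e1 itself, relative to the mean of the 3 controls, had 1.68 in zygotes and 0.67 at the 2-cell stage. Against Hnrnpr alone the sample mean of Carm1 was 0.55 in zygotes and 0.47 at the 2-cell stage.

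**Figure D2:**
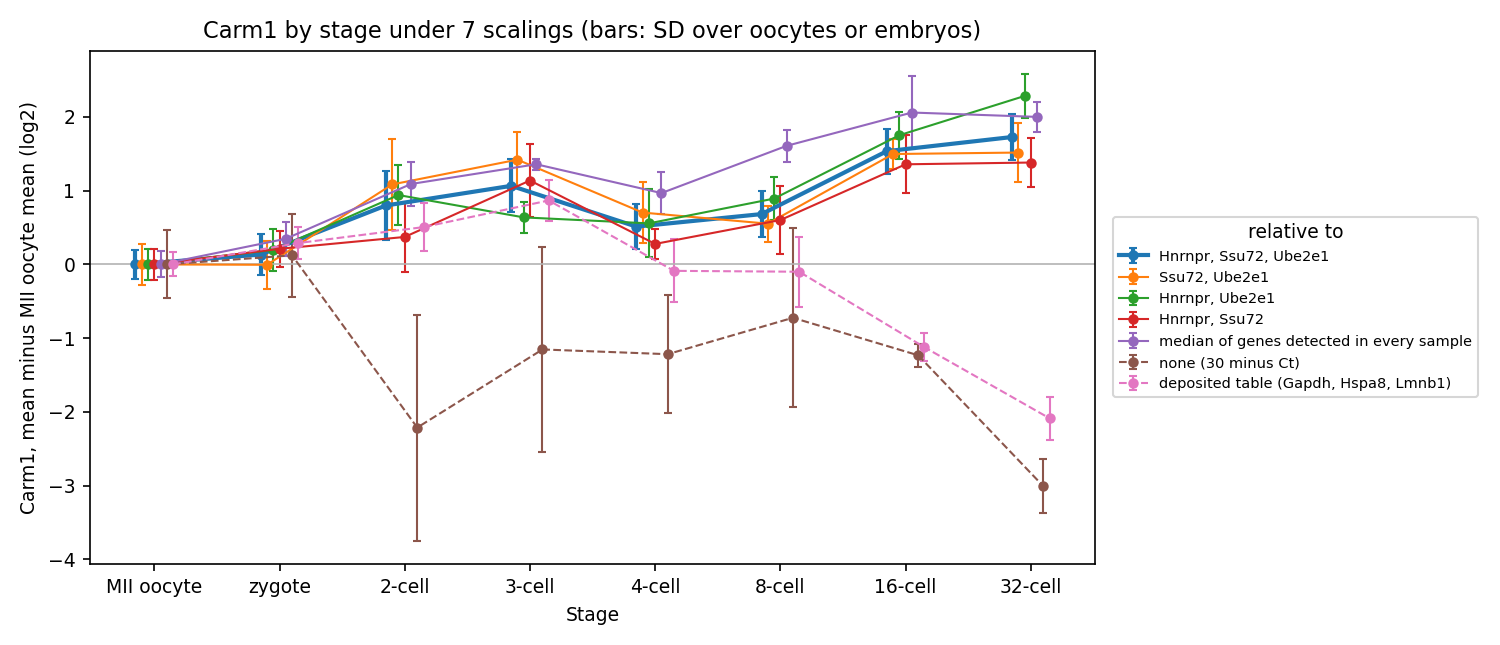
Mean of Carm1 minus its mean in MII oocytes (log2, y axis) by stage (x axis) under 7 scalings, with bars for the SD over oocytes or embryos. The 5 solid lines (the 3 controls, each pair of them, and sample medians) end between 1.38 and 2.28 at the 32-cell stage, and the 2 dashed lines (deposited table and no normalization) end at −2.09 and −3.01.

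Without normalization, single MII oocytes had a Carm1 Ct between 12.7 and 14.6 (median 13.6), single 8-cell blastomeres between 14.0 and 16.4 (median 15.4), and single 32-cell blastomeres between 15.9 and 20.2 (median 17.15). Single cells of 2-, 3-, 4- and 16-cell embryos had medians of 16.23, 14.995, 15.63 and 15.23. By these medians a blastomere gave less Carm1 signal than an oocyte, with no steady fall from stage to stage. A smaller cell and less transcript per unit of RNA cannot be told apart from these values.

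Whole oocytes and embryos give the Carm1 signal per embryo, in which transcript amount and recovery of the sample cannot be told apart. Single MII oocytes had a mean Carm1 Ct of 13.7 ± 0.463 (SD, n = 11), and zygotes one of 13.5 ± 0.562 (SD, n = 14). The 3 whole embryos had 13.5, 14.1 and 15.1 at the 2-cell stage, 14.0, 14.2 and 14.2 at the 4-cell stage, and 12.5, 13.10 and 13.9 with 8 cells. At the 16-cell stage they had 9.22, 9.48 and 11.06, lower in Ct than every other whole embryo, and at the 32-cell stage 12.5, 13.0 and 13.8, close to the 8-cell embryos.

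In 30 minus Ct, the whole 16-cell embryos exceeded the 8-cell embryos by 3.24 (SE 0.48, adjusted p = 3.68e-07, limma), at a step where 80.1% of genes passed. The controls rose by 2.42 there and the median of all genes by 2.79. The signal then fell by 3.19 to the 32-cell embryos (SE 0.48, adjusted p = 6.91e-07, 65.4% of genes passing). At that step the controls fell by 1.90 and the median of all genes moved by −2.46, so most of both changes is shared by the whole sample. The 32-cell embryos differed from MII oocytes by 0.54 (SE 0.38, adjusted p = 0.191), where 83.3% of genes passed. The earlier steps gave 0.12 to the zygote (adjusted p = 0.837, 2.56% passing), −0.72 to the 2-cell stage (adjusted p = 0.0791, 77.6% passing), 0.09 to the 4-cell stage (adjusted p = 0.998, 0.641% passing) and 1.00 to the 8-cell stage (adjusted p = 0.120, 25.6% passing). Relative to the 3 controls the step to the 2-cell stage was a rise of 0.87 and passed (adjusted p = 5.72e-05).

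**Figure D3:**
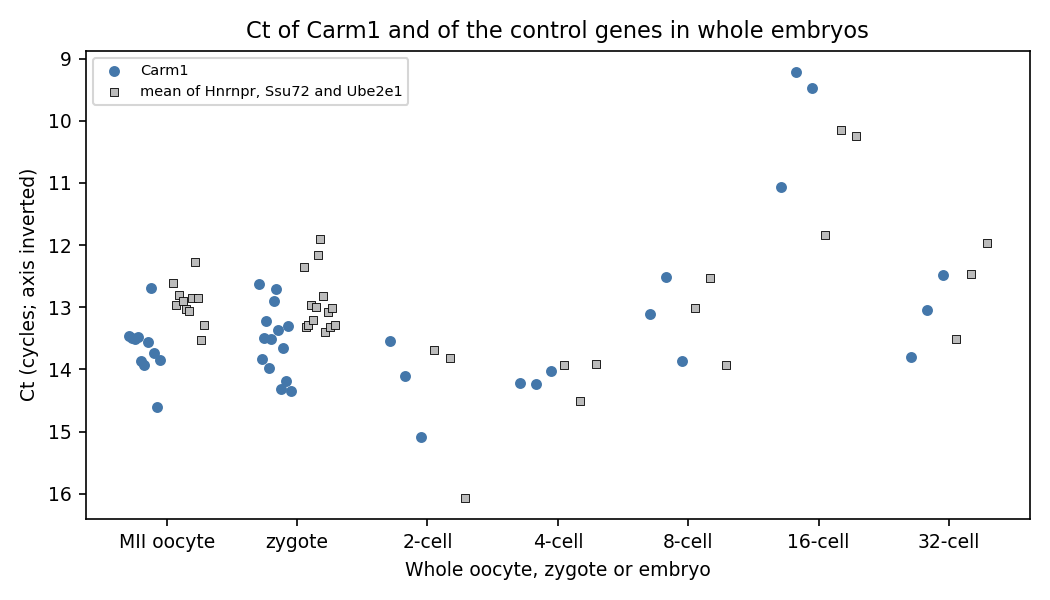
Ct of Carm1 (circles) and mean Ct of Hnrnpr, Ssu72 and Ube2e1 (squares) in each whole oocyte, zygote or embryo (x axis), on an inverted y axis in PCR cycles. The 3 whole 16-cell embryos have the lowest Ct values of both, and in the 3 whole 32-cell embryos Carm1 lies below the controls.

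Whole 32-cell embryos had less Carm1, relative to the mean of the 3 controls, than 32-cell blastomere samples. The whole embryos had normalized values of −0.57, −0.52 and −0.29, below every one of the 7 embryo means from blastomeres. The difference was −1.46 (SE 0.22, adjusted p = 2.09e-07, limma, 40.4% of genes passing, and p = 0.00833 in an exact two-sided permutation test over 10 embryos, the smallest that these 120 arrangements allow). At the 16-cell stage whole embryos (0.76, 0.78 and 0.94) and blastomere embryos differed by 0.02 (SE 0.29, adjusted p = 0.984, 3.21% passing). The last step, between 16 and 32 cells, was −1.29 in whole embryos (SE 0.26, adjusted p = 1.42e-04, 26.9% passing), and it differed from the step in blastomere samples by −1.48 (SE 0.36, adjusted p = 0.00294, 14.1% passing). These comparisons of sample kinds were chosen after the values were seen. The difference between the 2 steps did not pass with sample medians (−0.77, adjusted p = 0.0980), in the deposited table (−0.52, adjusted p = 0.517) or without normalization (−1.42, adjusted p = 0.736). The lower level of whole 32-cell embryos also depended on the control gene. Against Hnrnpr alone they had 1.67, 1.99 and 2.14, near the median of the 32-cell blastomere samples (2.08). Against Ssu72 alone they had −1.83 to −1.55 (blastomere median 0.41), and against Ube2e1 alone −1.99 to −1.20 (blastomere median 0.01).

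A lineage score, in which the average of 8 core TE genes is taken from that of 12 core ICM genes, was −2.79, −3.28 and −3.51 in the whole 32-cell embryos. Among the 50 blastomere samples of that stage Cdx2 was detected in 34 and Sox2 in 40, and the score was above 0 in 40 of them. The other 10 samples had scores from −8.71 to −3.82, lower than those of the whole embryos, with Carm1 at −0.80 and −0.44 in 2 of them and between 0.27 and 1.07 in the other 8. The isolated TE had a Carm1 value of −0.45 at a score of −4.24, and the isolated ICM had 0.58 at a score of −0.48. With Cdx2 at 0.43, the isolated ICM held the TE marker too. There was 1 sample of each, so no test was possible, and the part of cell composition in the difference was not tested.

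Measured Carm1 values differed between sister blastomeres of the early embryo, and the part of technical spread in this was not tested. In the 4-cell embryo e4 the 2 isolated blastomeres had −0.96 and −0.16, in e5 the 3 had −0.78, 0.10 and 0.34, and in e6 the 4 had −1.03, −1.0, −0.13 and 0.16. Within each of these embryos the highest and lowest blastomere were 1.73- to 2.29-fold apart. In the 8-cell embryo e4 the 8 blastomeres had −1.14, −1.08, −0.86, −0.67, −0.38, −0.29, −0.26 and 0.07. In e5 the 8 had −0.82, −0.32, −0.29, −0.06, 0.16, 0.49, 0.74 and 1.15. Most of e4 lay below 0, and e5 lay on both sides of it with the widest span of all, 3.91-fold. The 5 blastomeres of e6 had 0.12, 0.12, 0.30, 0.58 and 0.90, and the 3 of e7 −0.79, −0.24 and 0.16.

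**Figure D4:**
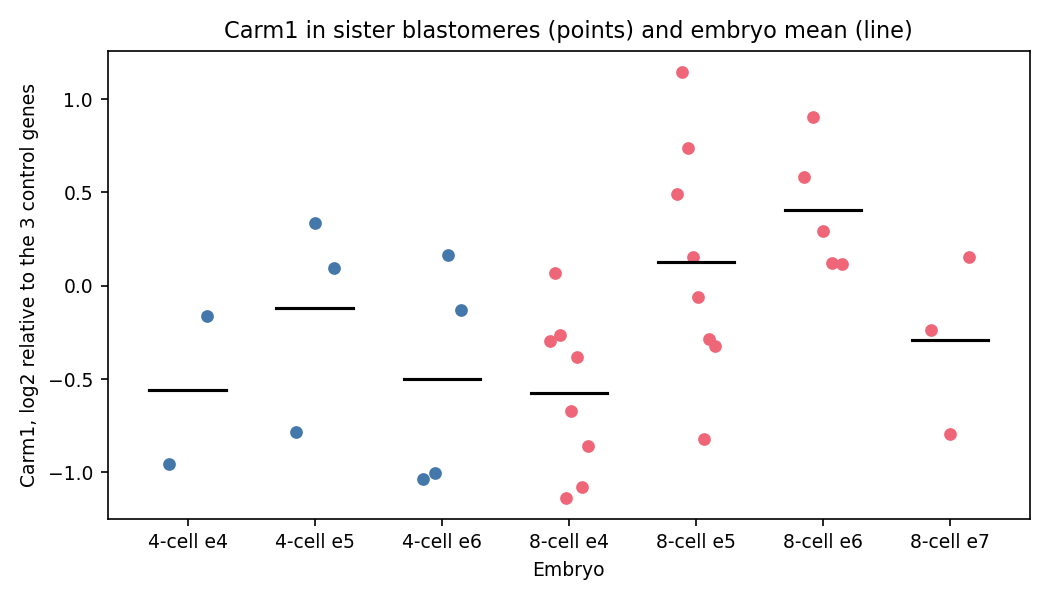
Normalized log2 expression of Carm1 (y axis) in each isolated blastomere (points) of the 3 dissociated 4-cell and 4 dissociated 8-cell embryos (x axis), with the embryo mean as a line. The values of the 2 lowest blastomeres of the 4-cell embryo e6 lie near −1.0 and those of the other two near 0, and the blastomeres of the 8-cell embryo e5 spread from −0.82 to 1.15.

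Pooled over embryos, the within-embryo SD was 0.59 at the 4-cell stage (9 blastomeres) and 0.50 at the 8-cell stage (24 blastomeres). The mean log2 of the within-embryo SD was −0.77 in 3 and −1.13 in 4 embryos, and the difference of 0.35 did not pass an exact two-sided permutation test over embryos (p = 0.2, where 35 arrangements allow no p below 0.0286). With the range over sisters in place of the SD the difference was −0.18 (exact permutation p = 0.714). A range grows with the number of sisters, which was 2 to 4 in the 4-cell and 3 to 8 in the 8-cell embryos. Its sign is therefore no measure of a difference in spread. Between embryos, the means had an SD of 0.24 with 4 cells and 0.44 with 8 cells.

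Against the other genes this spread was above the middle at 4 cells and below it at 8 cells. Among the 104 genes detected in all 33 of these blastomeres, Carm1 ranked 83 from the least variable at the 4-cell stage, where the median SD was 0.38, and 41 at the 8-cell stage, where the median was 0.55. The rank has no test. At the 4-cell stage its neighbours were H3f3a, which encodes histone H3.3 (0.54), Setdb2 (0.54) and ASF1B, a histone chaperone (0.55), on the less variable side, and Dmap1 (0.60) and Suv39h1, an H3K9 methyltransferase (0.66), on the other. At the 8-cell stage they were Dnmt3b, a de novo DNA methyltransferase (0.49), Eif1a (0.49) and Dicer1 (0.50) below, and Prdm2 (0.50), Ash2l (0.50) and Setd1a (0.51) above. The controls, to which all values are set, had SDs of 0.14 (Ube2e1), 0.17 (Ssu72) and 0.25 (Hnrnpr) at 4 cells.

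Repeats of the same RNA varied less. In 3 samples of 200 pg ESC RNA Carm1 had 2.57, 2.73 and 2.87, an SD of 0.15, but at a Ct of 11.2 to 11.3, where a single 4-cell blastomere had between 13.8 and 16.7. In a dilution from 25 to 200 pg the Carm1 Ct changed by −1.10 per doubling of RNA. The normalized value stayed between 2.60 and 3.22, with an SD of 0.30. In another series from 32 to 800 pg the change was −1.10 per doubling and the values lay between 2.35 and 2.52. The spread of repeats at the template of a single blastomere is not known from these samples. Relative to the mean of the 3 controls, the lowest of the 10 ESC RNA samples lay above 75 of the 76 late blastomere samples. Against Hnrnpr alone the ESC RNA samples (1.78 to 2.57) lay inside the range of the 32-cell samples (0.74 to 4.81). Against Ssu72 alone they had 3.15 to 4.74, where the 32-cell samples had −1.88 to 3.24. The share of other genes that separate ESC RNA from late samples was not counted.

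Among sisters the pluripotency transcripts gave no clear order with Carm1. Nanog was detected in all 24 blastomeres at the 8-cell stage, and its within-embryo correlation with Carm1 there was r = 0.13 (Spearman 0.09). Sox2 was detected in 7 of 9 blastomeres at the 4-cell stage, with Carm1 between −1.03 and 0.16, and the 2 blastomeres without it had −0.16 and 0.34. At the 8-cell stage Sox2 was detected in 4 of 24, with Carm1 from −0.82 to 1.15, and the other 20 overlapped with them (−1.14 to 0.90). These are descriptions over cells that share embryos and control values.

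At the 16- and 32-cell stages Carm1 varied within embryos by SDs of 0.30 to 1.03. The 13 samples of the 16-cell embryo 4 ran from 0.09 to 1.46 and those of embryo 5 from −0.27 to 1.84. The 32-cell embryo 8 held the lowest late sample (−0.80) and embryo 10 the highest (2.58). Nanog was detected in all 76 late samples, Sox2 in 48 (8 of 26 and 40 of 50) and Cdx2 in 60 (26 of 26 and 34 of 50).

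The relation to the lineage markers was fitted as the slope of Carm1 on each marker inside each of the 9 embryos, averaged with more weight for embryos in which the marker varied more. Per log2 unit of Nanog, Carm1 was 0.17 higher (SE 0.07, adjusted p = 0.125 over 155 genes), with a positive slope in 7 of 9 embryos. At this test 13.5% of genes passed and the median slope of all genes was 0.10. Per unit of Sox2 the slope was 0.026 (SE 0.017, adjusted p = 0.342, positive in 6 of 9), where 18.7% of genes passed. Per unit of Cdx2 it was −0.042 (SE 0.023, adjusted p = 0.306, positive in 1 of 9), where 4.52% passed. Per unit of the lineage score it was 0.045 (SE 0.018, adjusted p = 0.0937, positive in 6 of 9), where 29.5% of genes passed. None of the 4 slopes of Carm1 passed after adjustment. Sox2 was detected in 63.2% and Cdx2 in 78.9% of the late samples, and undetected values entered their slopes and weights. These 2 slopes are therefore in part a contrast of detected with undetected samples. With only the samples in which the marker was detected, both kept their sign and did not pass either.

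In the 2 embryos of the 16-cell stage the Nanog slopes were 0.40 and 0.15. In the 32-cell embryos 1, 8, 9, 10, 11, 12 and 13 they were 0.02, 0.37, 0.04, 0.54, −0.07, −0.60 and 0.06. The lowest and the highest of these came from embryos with 5 samples each. An exact permutation of signs over the 9 embryos gave p = 0.0234 for the Nanog slope. The same test gave 0.121 for Sox2, 0.129 for Cdx2 and 0.0586 for the lineage score, and none of these p values is adjusted. The Nanog slope passed over all genes without Ssu72 as control (0.18, adjusted p = 0.0355) and without normalization (0.51, adjusted p = 3.73e-04), where 132 genes passed. It was 0.06 with sample medians (adjusted p = 0.605). The slopes on Sox2 and on the lineage score turned to −0.041 and −0.049 with equal weights for the embryos. No difference in slope between the stages passed (32-cell minus 16-cell, 0.0019 for Nanog, −0.012 for Sox2, 0.036 for Cdx2 and −0.027 for the score, adjusted p from 0.808 to 0.997).

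**Figure D5:**
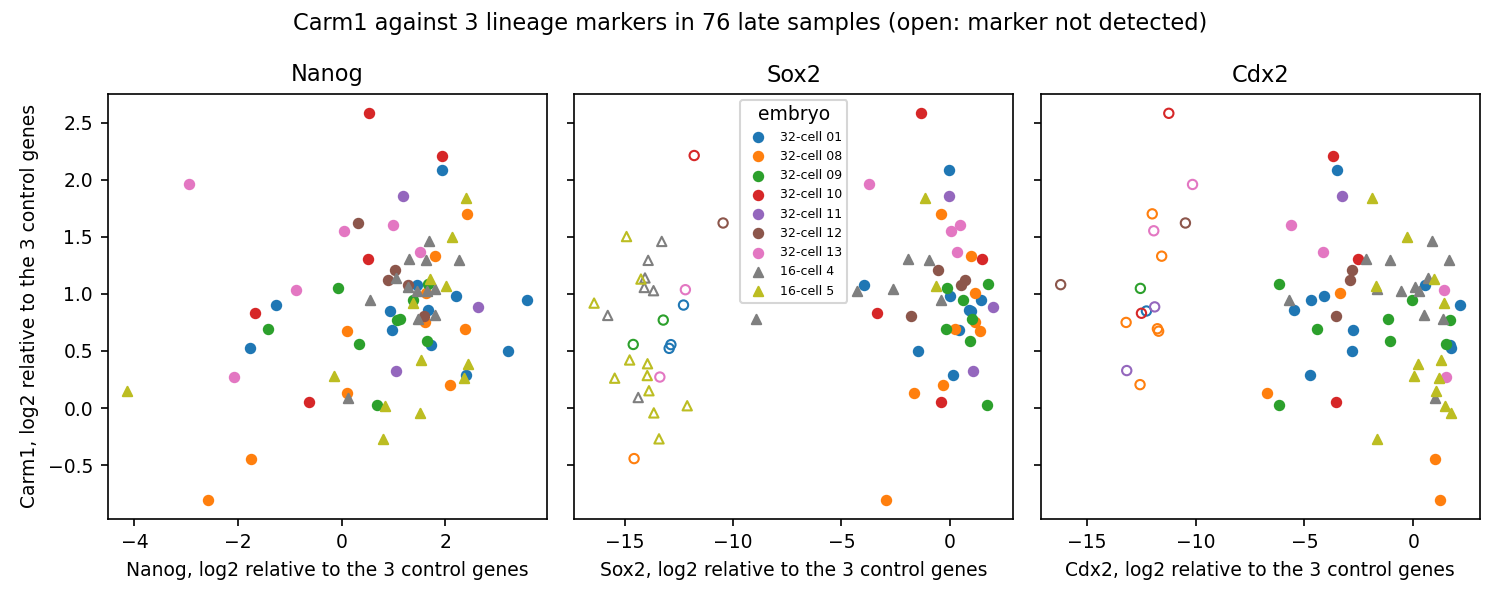
Carm1 (y axis) against Nanog, Sox2 and Cdx2 (x axes) in 76 late samples, all as normalized log2 expression, with embryos as colours, triangles for the 16-cell stage and open symbols where the marker was not detected. Over all 9 embryos the within-embryo correlation was 0.42 for Nanog, 0.25 for Sox2 and −0.30 for Cdx2.

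The within-embryo correlations place these values among the other genes. Over the 76 late samples, with embryo means removed, Carm1 had r = 0.42 with Nanog, 0.25 with Sox2 and −0.30 with Cdx2. Over 108 other genes detected in at least 90% of the samples the median was 0.26, and all values share the control genes and the template of a sample. Sox2 and Cdx2, detected in 63.2% and 78.9% of the samples, do not belong to that set, and their undetected values follow the control Ct. The 5 highest were Hdac1, a histone deacetylase (0.61), DEK, a chromatin protein (0.59), Ezh1, a PRC2 methyltransferase of the core ICM set (0.57), Pou5f1, a pluripotency factor (0.54), and Cbx3, which encodes an HP1 protein (0.54). Among the lowest were Krt8, a keratin of the TE (−0.37), Phf8, a histone demethylase (−0.33), Tead4, a transcription factor of TE formation (−0.21), and Lats2, a Hippo pathway kinase (−0.19). Without normalization these highest and lowest genes were all positive, from 0.40 for Krt8 to 0.92 for DEK, and Sox2 and Cdx2 had 0.20 and 0.19. The correlation of Carm1 with the mean Ct of the controls inside embryos was 0.03.

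Across the 8 stage means, the genes most like Carm1 were Krt19 (r = 0.94), Mtf2, a PRC2 cofactor (0.94), Rbp2 (0.94), Smyd1 (0.93) and Zfp42, a marker of pluripotent cells (0.92). The most opposed were Pcgf1, a PRC1 subunit (−0.95), Tet3, the 5-methylcytosine oxidase of the zygote (−0.94), H3f3a (−0.93), Kdm1b, a histone demethylase of growing oocytes (−0.90), and Tada3 (−0.88). The means of Carm1 spanned 1.73, against 3.03 for Mtf2 and 11.56 for Tet3. Krt19, Rbp2 and Smyd1 had means between −17.11 and −16.43 in oocytes, near the value of undetected genes. At 4 cells they shared a mean of −15.35, that of a gene detected in no sample. Where these genes are undetected their means follow the control Ct, so their likeness to Carm1 is in part not one of expression. These r are over 8 means and describe the order of stages.

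A list of genes linked with CARM1 or with arginine methylation held 7 genes of the panel: the PRMT partner Prdm14, the arginine-directed JmjC protein Jmjd6, and the pluripotency factors Pou5f1, Sox2, Nanog, Esrrb and Klf4. Between the zygote and 2 cells, where Carm1 rose with the 3 controls, 4 of the 7 rose (Esrrb by 13.72, Nanog by 9.61, Prdm14 by 7.51 and Klf4 by 1.57), Pou5f1 fell by 1.17, and Jmjd6 (−0.26) and Sox2 (−0.31) did not pass. So 5 of 7 passed, where 68.6% of all genes did, and the median of the 7 was 1.57, against −0.33 for all genes. Esrrb was not detected in 9 and Nanog in 12 of 14 zygotes, so that the size of these rises is set in part by the Ct of 30 of undetected genes. At the step to 16 cells, Nanog rose by 3.59 and Pou5f1 by 1.29, and the other 5 did not pass, where 28.2% of all genes passed, with a median of −0.30 against 0.32 for all genes. From MII oocytes to the late embryos 4 rose (Nanog, Esrrb, Prdm14 and Pou5f1), Jmjd6 fell by 1.59, and Klf4 (0.50) and Sox2 (−0.27) did not pass, where 84.6% of all genes passed.

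Lysine methyltransferases are the other large group of histone methylating enzymes on the panel. Of 37, 10 rose and 16 fell between the zygote and 2 cells (median 0.04, against 0.67 for Carm1 and −0.33 for all genes). Between 8 and 16 cells 9 rose and 1 fell (median 0.57, against 0.85 for Carm1 and 0.32 for all genes), and from MII oocytes to the late embryos 13 rose and 18 fell (median −0.53, against 1.68 for Carm1). The share that passed was near that of all genes at each of these steps (68.6%, 28.2% and 84.6%), so these counts are no result about lysine methyltransferases. A change of control genes shifts all differences by the same amount, and at the step between 8 and 16 cells the genes called higher and lower were 31 and 13 with the 3 controls, 18 and 19 with sample medians, and 3 and 76 in the deposited table.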

How the data were processed

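RNA of oocytes, zygotes, blastomeres (single or several), whole embryos and ESCs was reverse transcribed, preamplified with the primers of 192 assays and measured on microfluidic qPCR chips. The authors deposited 1 table of Ct values, a score in PCR cycles with undetected genes at 30, and 1 table of log2 values, which equalled 30 minus the Ct relative to Gapdh, Hspa8 and Lmnb1 within 1.03e-08. The 36 assays marked as failed were left out. The 3 samples the study left out were left out as well. Normalized expression was computed from the Ct with Hnrnpr, Ssu72 and Ube2e1. qPCR has no read depth, so the control Ct stands for the amount of template, which limits the precision of each value. Samples were averaged to 58 units and fitted with limma 3.58.1 (lmFit and eBayes, R 4.3.3) over all stages, with Benjamini-Hochberg adjustment over the genes and a threshold of 0.05. Whole embryos were fitted on 30 minus Ct. Slopes per embryo entered limma with an intercept, weighted by the sum of squares of the marker. P-values describe the spread between embryos. The scripts were tested on simulated data. Named genes were Carm1, the controls, the markers, a list of CARM1-linked genes (lysine methyltransferases were counted only), the 5 genes most and least like Carm1 by 2 measures, and the 3 genes on either side of it in sister spread; 1 gene that this rule names is not reported here. The members and lists were chosen with earlier results of these data known. Alternatives changed the control genes, samples, units, floor, weights and test.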

Additional observations from a re-analysis of the deposited data

Results flagged for a closer look

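Among the 18 groups of 4 to 10 values that were examined for a stray value, 2 had one, and chance gives about 1 in 20. In the 32-cell embryo 9, 1 single blastomere had a Carm1 value of 0.0251, while the other 8 samples lay between 0.56 and 1.09. The slope of Carm1 on Sox2 was −0.51 in the 32-cell embryo 11, which has 3 samples, against slopes between −0.08 and 0.10 in the other embryos. The step from the 16-cell to the 32-cell stage differed between whole embryos and blastomere samples by −1.48 in normalized Carm1, by a test of the difference itself (limma, adjusted p = 0.00294), which did not pass with sample medians, in the deposited table or without normalization (adjusted p = 0.0980, 0.517 and 0.736). Of the 3 samples that the study left out, 2 lay above every retained sample of their stage. They were 1 MII oocyte at 0.18, with a mean control Ct of 15.1, and 1 blastomere of the 32-cell embryo 9 at 4.70, with one of 22.7. In this blastomere Hnrnpr was not detected, which sets the 4.70: the Carm1 value was 12.04 against Hnrnpr alone. Against Ssu72 (0.71) and Ube2e1 (1.34) it lay inside the ranges of the retained 32-cell samples (−1.88 to 3.24 and −1.88 to 1.99).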

How the results depend on the processing

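Over 36 results, 911 of 1033 recomputed values kept their direction and call, or for a count or spread moved little. Some recomputations could not move a stage difference of Carm1, such as leaving out an embryo of a stage outside the step, or setting values below −10 to −10. The count is therefore no measure of how firm the results are. The cause of the other changes was not tested. With the deposited table Carm1 was 0.22 from the zygote to 2 cells, −0.59 to 4 cells, −0.012 to 8 cells, −1.02 to 16 cells, −0.96 to 32 cells, −1.87 from MII oocytes to the late embryos, −0.38 from the zygote to 4 cells and −1.99 from 3 to 16 cells. Without normalization it was −2.34 from the zygote to 2 cells, 1.00 to 4 cells, −0.51 to 16 cells, −1.78 to 32 cells, −2.61 from oocytes to the late embryos, −1.34 from the zygote to 4 cells, −1.49 from 8 to 2 cells and −0.079 from 3 to 16 cells, with a 4-cell sister SD of 1.08 and slopes of 0.51 on Nanog and 0.057 on Cdx2. With sample medians it was 0.35 from oocyte to zygote, 0.64 from 4 to 8 cells, 0.45 to 16 cells, −0.059 to 32 cells and −0.52 from 8 to 2 cells, with sister SDs of 0.52 and 0.35. Without Hnrnpr it was −0.0056 from oocyte to zygote and −0.15 from 4 to 8 cells (4-cell sister SD 0.67). Without Ssu72 it was −0.30 from 2 to 3 cells (4-cell sister SD 0.54), with slopes of 0.18 on Nanog and 0.057 on the score. Without Ube2e1 it was 0.16 from the zygote to 2 cells and −0.23 from 8 to 2 cells.

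With whole embryos added, the step from 16 to 32 cells was −0.26. With every sample as a replicate, the step from 2 to 4 cells was −0.52 and passed (adjusted p = 0.0291, limma). Replicate numbers did not pair the samples (411 pairs of equal number, median correlation −0.00504, 80 over 0.1), and with the number as a replicate block this step was −0.58, which passed too (adjusted p = 0.00628, limma), and that from 16 to 32 cells −0.088. Leaving out 1 embryo in turn gave 0.64 to 1.07 from 8 to 16 cells and −0.024 to 0.41 from 16 to 32 cells, and in whole embryos −1.06 to −0.30 from the zygote to 2 cells (adjusted p = 0.0280 without the whole embryo e1, limma), −0.33 to 0.44 to 4 cells and 0.68 to 1.35 to 8 cells (adjusted p = 0.0444 without e3, limma). Relative to the controls, whole embryos gave 0.87 from the zygote to 2 cells and −0.32 to 4 cells. With the range over sisters, which grows with their number, the difference between 4 and 8 cells was −0.18. With equal weights the slopes were −0.041 on Sox2 and −0.049 on the score. The exact sign permutation, which is not adjusted, gave a p below 0.05 for the Nanog slope of 0.17 but not for Sox2, Cdx2 or the score.

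Over the alternatives the genes called ran from 0 to 6 between oocyte and zygote (3 as reported), 32 to 66 between 2 and 4 cells (51), 42 to 84 to 8 cells (77), 16 to 85 to 16 cells (44) and 6 to 75 to 32 cells (17), and for slopes from 0 to 37 on Sox2 (29), 0 to 132 on Nanog (21), 0 to 34 on Cdx2 (7) and 2 to 61 on the score (46).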

Other observations

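At the 32-cell stage the 32 single blastomeres had a Carm1 SD of 0.73 and the 18 samples of several cells an SD of 0.46, with means of 0.88 and 0.98. At the 16-cell stage the SDs were 0.62 over 20 single cells and 0.25 over 6 samples of several cells, with means of 0.79 and 0.85.

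The 2 single blastomeres of the 2-cell embryo labelled A.e1 had −0.04 and 0.50, and those of A.e5 −0.48 and 0.29. The 3 cells of the 3-cell embryo e1 had 0.54, 0.65 and 1.05.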
